A study of Mus musculus with 238 samples.

Results

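The subventricular zone (SVZ) libraries of dietary restricted and freely fed old mice were compared across all genes. They are the 9 of 238 libraries of the study whose labels give the tissue as SVZ and the experiment as the dietary one: 5 from restricted mice (aDR; mice 61, 62, 64, 65 and 67) and 4 from mice with food ad libitum (AL; mice 63, 66, 68 and 69). All 9 mice were females of the strain C57BL/6JN aged 19 months, and each library came from a separate mouse. The study mapped 2 interventions over 15 brain regions, and the other one, on males of the same strain and age, set plasma of young mice (YMP) against saline (PBS). How long and how strongly food was restricted, and the hour of the last meal and of sampling, are not given in the sources used here. The tissue was taken by region and not by cell type, so each value is an average over every cell in the piece.

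The SVZ lines the lateral ventricle and is one of the places where the adult mouse brain still makes neurons. Quiescent neural stem cells, which resemble astrocytes, give rise to dividing transit-amplifying progenitors, and these to neuroblasts that migrate to the olfactory bulb; multiciliated ependymal cells separate them from the fluid of the ventricle. The striatum, the corpus callosum and the choroid plexus lie directly beside it. Restricted feeding is known to change the daily rhythm of feeding, to raise circulating glucocorticoid hormone and to lower body temperature in mice. Genes that follow the clock, the glucocorticoid receptor and temperature were described next to those of the neurogenic lineage. The gene lists were chosen with earlier results of these data known. Their counts beside those of all genes are therefore a description and not a test.

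Several genes that define the SVZ were at a high rank among the tissues, and others were not. Foxj1, the master transcription factor of motile cilia and a marker of ependymal cells, had a median of 43.1 CPM (a gene's counts scaled to a common library total) in the 9 libraries, the highest of the 16 tissues sampled, ahead of hypothalamus at 16.7 CPM. Dlx2, a transcription factor of progenitors and neuroblasts, had a median of 28.4 CPM, the second highest after olfactory bulb. The summed quiescent stem cell list had rank 2, with a median of 1765 CPM against 1908 CPM in pons. The summed transit-amplifying list also had rank 2, at 478 CPM against 583 CPM in olfactory bulb and 397 CPM in liver. Neither list is therefore particular to the SVZ. The summed level of 22 genes of cell division had a median of 207.6 CPM, next to 200.1 CPM in cerebellum with overlapping ranges, and Mki67 was higher in liver (5.15 CPM) than in SVZ (3.23 CPM). Dcx, which marks migrating neuroblasts, had rank 3, behind olfactory bulb and visual cortex, and the summed neuroblast list had rank 10 of 16 (a median of 1660.3 CPM, against 3528 CPM in olfactory bulb); part of that list is also expressed by other neurons.

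The libraries fell into 2 sets by their level of choroid plexus genes, and these sets cut across the diets. The summed level of 14 choroid plexus genes, such as Ttr (transthyretin), Kl (klotho) and Folr1, was 433.7 to 989.6 CPM in 4 libraries and 6436 to 17460.1 CPM in the other 5. The plexus-poor libraries were those of AL mice 63 and 68 and aDR mice 64 and 67, and the plexus-rich ones those of AL mice 66 and 69 and aDR mice 61, 62 and 65. The first principal component held 53.9% of the variance and separated the same 2 sets. Ependymal genes moved with the plexus genes (325 to 419 CPM in plexus-poor against 499 to 592 CPM in plexus-rich libraries), and genes of cortical projection neurons the other way (1924 to 2234 against 1213 to 1616 CPM). Cell division genes also went the other way (211 to 224 against 172 to 208 CPM). Further lists separated fully between the sets. Niche signalling, fatty acid and mural genes were higher in every plexus-rich library, and striatal, blood and immediate early genes in every plexus-poor one. The sets were defined from these same libraries, at the largest gap in their plexus level. Between the sets 2349 of 14159 genes (16.6%) had an adjusted p under 0.05 by edgeR's quasi-likelihood test. Because the split came from the same data, that count describes its size and is not an independent test. The diet comparison is therefore given over all 9 libraries and, where it bears on a result, with a term for plexus content and within each set. The library of aDR mouse 64 stood apart once more, with 8767 CPM of striatal projection neuron genes where the other 8 had 2429.97 to 4329.6 CPM. Library totals ran from 2.57 M counts (aDR mouse 62) to 16.1 M counts (AL mouse 68), and mitochondrial genes took 1.87% to 2.58% of them.

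**Figure D1:**
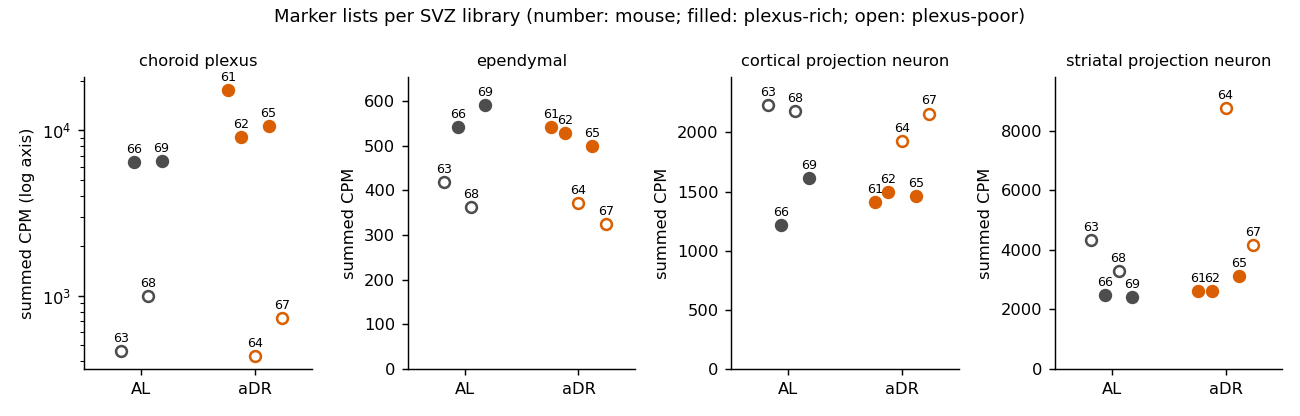
Summed CPM of 4 lists of marker genes in each SVZ library, by diet; the number is the mouse, the choroid plexus axis is logarithmic, filled points are plexus-rich and open points plexus-poor libraries. Choroid plexus genes lie at 433.7 to 989.6 CPM in 4 libraries and at 6436 CPM or more in 5, with both diets in each set, and aDR mouse 64 has the most striatal RNA at 8767 CPM.

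Diet restriction raised 3 genes in the SVZ, Ciart, Plin4 and Rbm3, and lowered none beyond the threshold. They are 0.0212% of the 14159 genes tested with edgeR's quasi-likelihood test (Benjamini-Hochberg adjusted p under 0.05). At an unadjusted p under 0.05 there were 330 genes with a higher (2.33%) and 314 with a lower level in aDR (2.22%), together 4.55% of the genes. DESeq2 called 12 genes (0.0848%), all higher in aDR: the same 3, and Usp2, Tsc22d3, Cirbp, Prodh, Adipor2, Fmo2, Per2, Klf15 and Sgk1. Since these are bulk samples, a lower level of a gene can come from fewer cells of a type or from less RNA per cell, and these cannot be told apart.

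Ciart codes for a repressor of the circadian clock (also known as CHRONO), which binds the activator pair CLOCK and BMAL1 and silences the genes they drive. The AL libraries held 24.7, 25.9, 23.2 and 23.3 CPM of it (mice 63, 66, 68 and 69), and the aDR libraries 44.2, 46.7, 46.9, 38.9 and 42.8 CPM (mice 61, 62, 64, 65 and 67). Every restricted mouse lay above every freely fed one, and neither group spread over more than 8 CPM. The means were 43.9 ± 3.26 CPM (SD, n = 5) in aDR and 24.3 ± 1.32 CPM (SD, n = 4) in AL, which is a change of 0.86 on the log2 scale (SE 0.079, adjusted p 0.00946 by edgeR), or 1.81-fold. In the 4 plexus-poor libraries the log2 change was 0.91 and in the 5 plexus-rich ones 0.81.

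CLOCK and BMAL1 bind the E-box, the palindrome CACGTG, and the promoter of Ciart carries 3 of them. The 300 bases from 250 before to 50 after the start given by RefSeq (GRCm38.p6, chr3:95882179-95882478, minus strand) are shown 5′ to 3′ with each E-box in capitals, since Ciart is the gene with the smallest p in this comparison.
Ciart promoter: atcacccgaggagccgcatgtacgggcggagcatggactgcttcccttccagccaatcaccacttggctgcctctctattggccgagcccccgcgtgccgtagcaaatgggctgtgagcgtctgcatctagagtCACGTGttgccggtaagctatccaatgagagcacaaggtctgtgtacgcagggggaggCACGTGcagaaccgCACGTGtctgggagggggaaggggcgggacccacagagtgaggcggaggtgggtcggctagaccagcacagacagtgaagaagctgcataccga
The E-boxes begin 116, 58 and 44 bases before the start. Of the 32851 RefSeq promoter windows of the mouse, 7.15% hold an E-box and 0.0883% hold 3 or more. An E-box lay in any of the windows of 4 of the 8 clock repressor genes that have an entry, a count per gene where the shares above are per window. Counted in the same way, it lay in 0 of 3 clock activators and 1 of 7 clock output genes (Tef). Of the glucocorticoid response genes 3 of 18 held it (Fkbp5, Sgk1 and Per1). For Per1, Cry1 and Bhlhe41, the clock repressors that hold it besides Ciart, the site is printed here with 12 bases on each side.
Per1, chr11:69098771-69098800, plus strand: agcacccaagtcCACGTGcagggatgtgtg
Cry1, chr10:85185097-85185126, minus strand: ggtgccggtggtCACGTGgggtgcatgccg
Bhlhe41, chr6:145865556-145865585, minus strand: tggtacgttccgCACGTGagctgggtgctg
A match to these letters is a description of the window, not a measured binding site. The Ciart gene itself (GENCODE vM21, GRCm38, 3:95878503-95882251, minus strand) lies wholly inside the antisense gene C920021L13Rik. The counts hold no entry named C920021L13Rik, so it has no values of its own here. The libraries carry no strand, so reads of the 2 genes cannot be told apart.

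Plin4 codes for perilipin 4, a protein of the coat of lipid droplets. It was at 4.15, 3.05, 5.89 and 3.85 CPM in AL mice 63, 66, 68 and 69, and at 31.1, 19.1, 28.1, 13.1 and 29.96 CPM in aDR mice 61, 62, 64, 65 and 67. The groups did not overlap, and mice 62 and 65 were the lowest of the restricted ones. The means of 24.3 ± 7.85 CPM (SD, n = 5) and 4.23 ± 1.19 CPM (SD, n = 4) gave a log2 change of 2.49 (SE 0.29, adjusted p 0.0375 by edgeR), a 5.60-fold difference and the largest positive change among the genes with an unadjusted p under 0.01. It was 2.52 in the plexus-poor and 2.60 in the plexus-rich libraries. Under limma voom with sample weights the adjusted p was 0.287. Perilipins 2 and 5, other coat proteins of lipid droplets, stood at log2 changes of -0.19 (SE 0.11) and 0.12 (SE 0.18).

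The promoter window of Plin4 (chr17:56109733-56110032, minus strand, GRCm38.p6) is printed because Plin4 passed the threshold and is on the list of glucocorticoid response genes. It held none of the 5 motifs searched on both strands, so nothing stands in capitals. These were the E-box, the D-box TTATGTAA, the ROR site AGGTCA, the glucocorticoid receptor core AGAACA, and the glucocorticoid palindrome, which is that core, 3 bases of any kind and the reverse complement of the core.
Plin4 promoter: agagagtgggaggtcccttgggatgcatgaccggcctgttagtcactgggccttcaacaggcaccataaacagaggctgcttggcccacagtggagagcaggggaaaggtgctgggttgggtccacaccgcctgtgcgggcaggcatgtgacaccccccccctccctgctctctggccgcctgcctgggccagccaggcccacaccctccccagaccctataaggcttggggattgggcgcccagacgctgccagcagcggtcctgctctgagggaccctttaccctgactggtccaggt
The core lies in 19.0% of all windows and is contained in the palindrome, while the D-box lies in 0.938% and the ROR site in 16.3% of them. Of the 18 glucocorticoid response genes with an entry 4 hold the core in any of their windows (Tsc22d3, Sgk1, Sult1a1 and Fam107a), which is 22.2%. That share is per gene and the 19.0% is per window, so they are not on the same footing. The palindrome lies in 3 of the 32851 windows (0.00913%), and 1 of the 3 belongs to a listed gene, Sgk1 (at 1 of its 6 annotated starts, 189 bases upstream). That site is shown with both copies of the core in capitals.
Sgk1, chr10:21993689-21993727, plus strand: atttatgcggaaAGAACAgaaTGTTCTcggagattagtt
These windows do not cover sites that lie elsewhere in the genes.

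Rbm3 codes for an RNA-binding protein that is made when cells cool. Its level was 59.0, 57.6, 51.2 and 66.0 CPM in AL mice 63, 66, 68 and 69, and 121, 124, 93.8, 104 and 99.2 CPM in aDR mice 61, 62, 64, 65 and 67. All 5 restricted mice lay well above all 4 freely fed mice. The means were 108 ± 13.4 CPM (SD, n = 5) and 58.5 ± 6.08 CPM (SD, n = 4), 0.89 apart on the log2 scale (SE 0.11, adjusted p 0.0375 by edgeR), and the change was 0.81 in plexus-poor and 0.89 in plexus-rich libraries. Rbm3 overlaps 452 bases of its antisense gene Rbm3os on chromosome X, which had a log2 change of 0.72 (SE 0.19, adjusted p 0.981 by edgeR); without strand, reads of the shared bases cannot be assigned to either gene. Its cold-inducible relative Cirbp had 206 ± 24.1 CPM (SD, n = 5) in aDR and 137 ± 14.8 CPM (SD, n = 4) in AL, without overlap, a log2 change of 0.59 (SE 0.10, adjusted p 0.393 by edgeR and 4.23e-04 by DESeq2).

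With a term for plexus content in the edgeR fit the same 3 genes were called, each at an adjusted p of 0.0032, and 1168 genes (8.25%) had an unadjusted p under 0.05, 619 on the higher (4.37%) and 549 on the lower side (3.88%), against 644 without the term. No gene passed edgeR's threshold without AL mouse 63, 68 or 69, or within either plexus set alone, and 1 or 2 did without any 1 of the other mice.

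**Figure D2:**
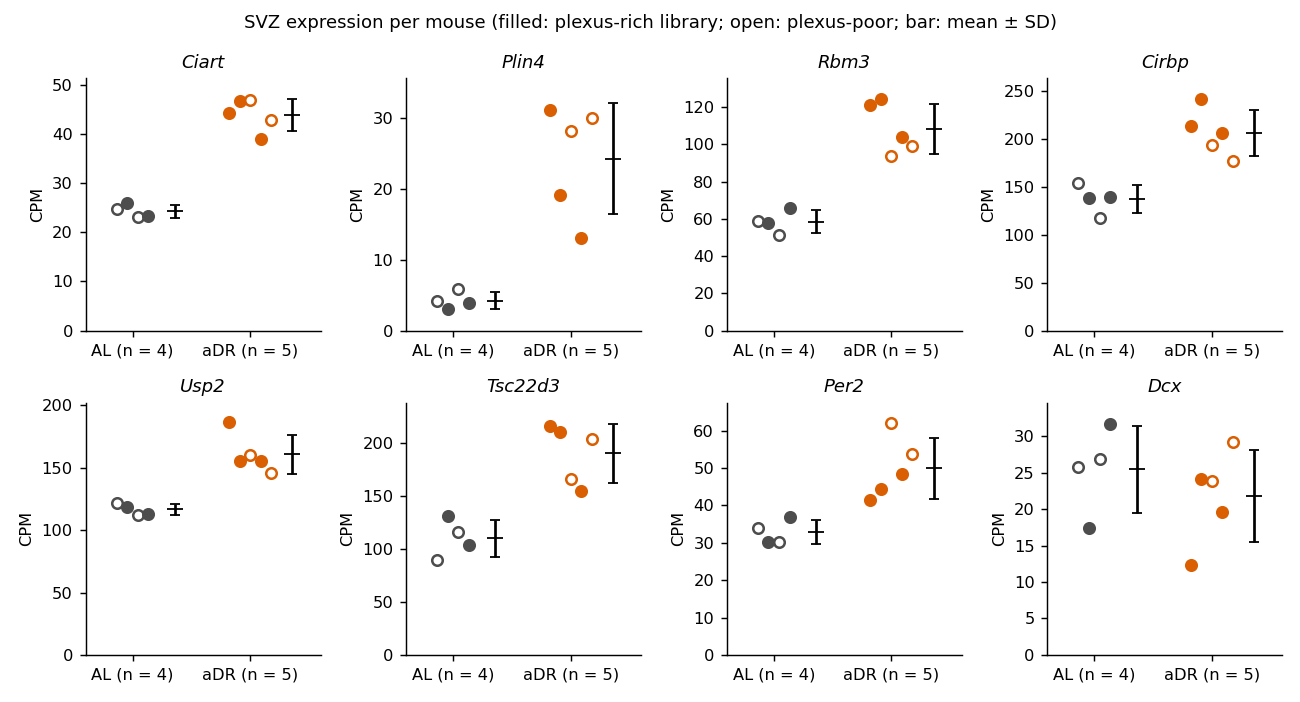
CPM of 8 genes in each SVZ library, AL in grey and aDR in orange; filled points are plexus-rich and open points plexus-poor libraries, and the bar gives the mean and SD. Ciart, Plin4 and Rbm3 passed the edgeR threshold; Cirbp, Usp2, Tsc22d3 and Per2 did not overlap between the diets but did not pass it; Dcx overlapped.

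The other genes of the clock are the ones Ciart acts with. CLOCK and BMAL1 (gene Arntl) switch on the period and cryptochrome genes, whose proteins then shut CLOCK and BMAL1 off, and a second loop of REV-ERB (Nr1d1, Nr1d2) represses Arntl. Of 10 clock repressors 9 had a positive log2 change, with a median of 0.25 against 0.0086 over all genes tested. EdgeR called 1, as it did 0.0212% of all genes. An unadjusted edgeR p under 0.05 was reached by 6, all positive, as by 2.33% of all genes on that side. The diets did not overlap for 4 on the higher side, as was so for 0.975% of all genes. The median was 0.36 in the plexus-poor and 0.14 in the plexus-rich libraries. The hour of sampling was not given, so whether a level or a phase differed was not tested.

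Per2, a core repressor, had 33.97, 30.3, 30.1 and 36.8 CPM in the AL mice and 41.4, 44.3, 62.0, 48.4 and 53.8 CPM in the aDR mice, in the order of mice used above. All aDR values lay above all AL values, and mouse 64 was the highest. Its log2 change was 0.61 (SE 0.12) with an adjusted p of 0.877 by edgeR and 0.0292 by DESeq2. Per3 (0.37, SE 0.091) and Cry1 (0.31, SE 0.10) also did not overlap, and Per1 (0.34, SE 0.11) did. Nr1d1 stood at -0.043 (SE 0.10) and Nr1d2 at 0.16 (SE 0.070). Arntl, the activator, went the other way, with 34.8, 37.3, 34.6 and 33.0 CPM in AL and 24.8, 31.5, 31.2, 27.3 and 25.3 CPM in aDR mice. Its highest aDR value, in mouse 62, lay below the lowest AL value, and the log2 change was -0.33 (SE 0.093, adjusted p 0.981 by edgeR). Its partner Clock stood at 0.035 (SE 0.099).

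Clock output genes lie downstream, among them the PAR bZIP transcription factors Dbp, Tef and Hlf. Of 9 output genes 8 had a positive log2 change (median 0.25; 0.47 without AL mouse 66) and 0 were called by edgeR. DESeq2 called 1, where it called 0.0848% of all genes. An unadjusted edgeR p under 0.05 was reached by 4 on the higher side (2.33% of all genes) and 1 on the lower (2.22%). Usp2, a ubiquitin protease whose RNA cycles in most tissues, was at 122, 119, 112 and 113 CPM in AL and 187, 155, 160.4, 155 and 145 CPM in aDR mice. All AL values lay under all aDR values, and mouse 61 was the highest. The log2 change was 0.46 (SE 0.078), with an adjusted p of 0.393 by edgeR and 3.42e-04 by DESeq2. Dbp stood at 0.42 (SE 0.11) without overlap, Hlf at 0.41 (SE 0.14) and Wee1, a kinase that holds back mitosis, at 0.25 (SE 0.097). The exception was Nfil3, which represses the same sites that DBP activates, at -0.32 (SE 0.14).

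The glucocorticoid receptor, coded by Nr3c1, is a transcription factor that corticosterone releases into the nucleus. The list holds 20 genes, the receptor gene and 19 that respond to it; the 19 all had a positive log2 change in the SVZ, and the median over the 20 was 0.34; over all genes tested 52.5% were positive. The test called 1 (Plin4; 0.0212% of all genes), and 13 had an unadjusted p under 0.05, all positive, as did 2.33% of all genes on that side. The groups did not overlap for 7, all on the higher side, against 0.975% of all genes. The list median lay between 0.30 and 0.47 over the 19 other settings tried. Summed over the list, the libraries held 1447 to 1637 CPM in AL and 1822 to 2279 CPM in aDR. The receptor gene itself was at -0.0059 (SE 0.12).

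Tsc22d3 (GILZ), an early target that mediates anti-inflammatory effects of glucocorticoids, was at 90.2, 131, 117 and 104 CPM in AL and at 217, 210.4, 167, 155 and 204 CPM in aDR mice. Mice 64 and 65 were the lowest of the aDR group and still above AL mouse 66, the highest AL value. The log2 change was 0.79 (SE 0.13; adjusted p 0.393 by edgeR, 1.23e-04 by DESeq2). Sgk1, a kinase that regulates ion transport, had 153, 156, 188 and 197 CPM in AL and 563, 239, 245, 305 and 376 CPM in aDR mice. Mouse 61 was the highest by far and the groups did not overlap; the log2 change was 0.997 (SE 0.24; adjusted p 0.969 by edgeR, 0.0353 by DESeq2). Further members without overlap were Hif3a (1.23, SE 0.29), a hypoxia-inducible factor subunit, Sult1a1 (1.0002, SE 0.23), a sulfotransferase, Arrdc2 (0.67, SE 0.19) and Klf9 (0.26, SE 0.066), a transcription factor. Zbtb16 (0.86, SE 0.25) and Fkbp5 (0.51, SE 0.19), which codes for a co-chaperone that dampens the receptor, overlapped between the groups. Metallothionein Mt1 stood at 0.33 (SE 0.097), and Ddit4 and Fam107a at 0.15 (SE 0.12) and 0.14 (SE 0.14).

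**Figure D3:**
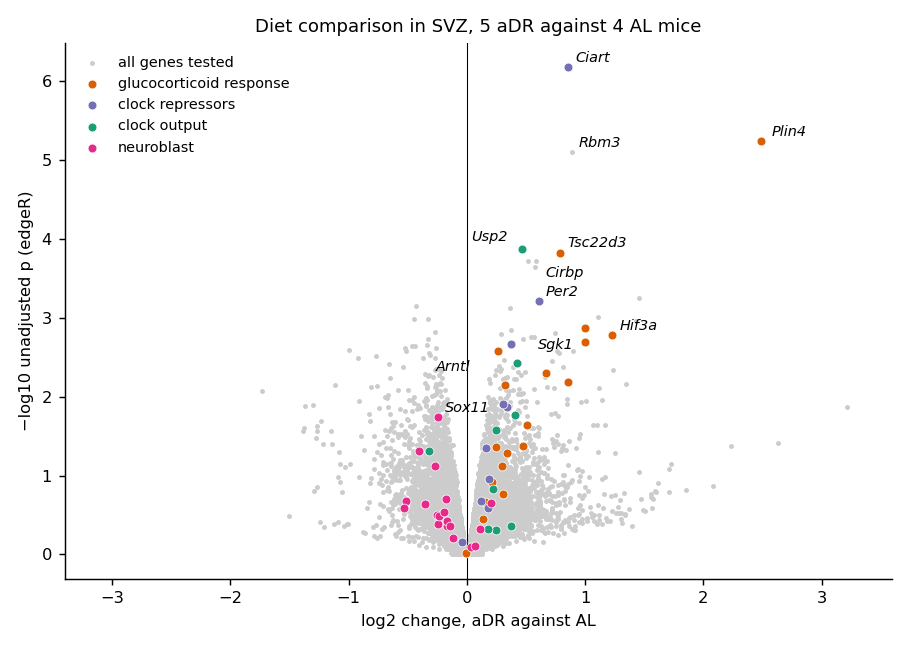
Log2 change of aDR against AL in the SVZ (x) against the −log10 unadjusted p of edgeR (y) for the 14159 genes tested, with 4 gene lists in colour. Ciart, Rbm3 and Plin4 are the 3 genes past the adjusted threshold; 19 of 20 glucocorticoid response genes and 9 of 10 clock repressors lie right of 0, and 15 of 19 neuroblast genes lie left of it.

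Among the remaining genes with the smallest p on the higher side, Prodh, which begins proline breakdown in mitochondria, stood at a log2 change of 0.52 (SE 0.091) and Adipor2, a receptor for adiponectin, at 0.57 (SE 0.10). Their edgeR adjusted p was 0.393 and 0.406, and DESeq2 called both. Fmo2, a flavin monooxygenase, was at 5.80 ± 1.66 CPM (SD, n = 5) in aDR and 2.14 ± 0.700 CPM (SD, n = 4) in AL, without overlap, at 1.45 (SE 0.29, adjusted p 0.877 by edgeR). Klf15, a transcription factor of fasting metabolism that glucocorticoids induce, was at 0.37 (SE 0.077, adjusted p 0.885 by edgeR). The other large positive changes at an unadjusted p under 0.01 were those of 3 genes of low count: Myzap at 1.44 (SE 0.32), Ada (adenosine deaminase) at 1.35 (SE 0.40) and the ligand Wnt8b at 1.23 (SE 0.34).

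On the lower side the smallest p belonged to Dtx4, a ubiquitin ligase of the Deltex family that acts in Notch signalling. It was at 26.1, 26.2, 27.3 and 23.2 CPM in AL and at 18.2, 16.7, 21.0, 19.2 and 19.6 CPM in aDR mice. The lowest AL value lay above the highest aDR value, and the log2 change was -0.43 (SE 0.090, adjusted p 0.885 by edgeR). The next 7, with edgeR adjusted p of 0.969 each, were Zmym1 (-0.44), March1 (-0.46; a ubiquitin ligase of MHC class II proteins), Ggcx (-0.44; the vitamin K-dependent carboxylase), Zfr2, Ogfod1 and Dsel (each -0.33) and Lasp1 (-0.27; an actin-binding protein). Having been chosen for a small p, these 8 had groups that did not overlap; over all genes 0.932% were lower without overlap. The largest negative changes at an unadjusted p under 0.01 were those of Arhgap36 (-1.73, SE 0.53), Ndst4 (-1.11, SE 0.33), Tpm3-rs7 (-0.999, SE 0.25; a close copy of Tpm3, so its counts are uncertain), Cyp2r1 (-0.92, SE 0.24) and Gp5 (-0.81, SE 0.24). All 5 averaged under 7 CPM in both diets.

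For the neurogenic lineage itself no gene passed the edgeR threshold in any list, and DESeq2 called none of them either. The lists are described in the order of the lineage: 17 stem cell, 11 transit-amplifying, 20 cell division and 19 neuroblast genes were tested. For comparison, 2.33% of all genes were higher and 2.22% lower at an unadjusted edgeR p under 0.05. Without overlap 0.975% of all genes were higher and 0.932% lower.

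Quiescent stem cell genes had a median log2 change of 0.10, with 11 of 17 positive; it was -0.032 in the plexus-poor libraries, 0.0073 in the plexus-rich ones and 0.031 without AL mouse 68. Sox2 and Id3 had an unadjusted p under 0.05, in opposite directions. Sox2, a transcription factor of stem cell identity, was at 55.3, 57.1, 49.5 and 49.4 CPM in AL and at 38.5, 48.6, 38.5, 46.8 and 44.3 CPM in aDR mice. The groups did not overlap, though AL mouse 69 and aDR mouse 62 were less than 1 CPM apart, and the log2 change was -0.29 (SE 0.092, adjusted p 0.981 by edgeR). Id3, an inhibitor of differentiation that BMP signals induce, stood at 0.67 (SE 0.19) with overlap. Gfap (0.28, SE 0.29), Thbs4 (-0.38, SE 0.44), Vcam1 (0.29, SE 0.31), Fabp7 (-0.45, SE 0.28), Nes (-0.021, SE 0.13) and Sox9 (0.047, SE 0.11) had changes within 2 SE of 0. With the term for plexus content Fabp7 was at -0.55 (unadjusted p 0.00727, adjusted p 0.489 by edgeR).

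Transit-amplifying genes had a median of -0.033 with 5 of 11 positive, and -0.15 without AL mouse 66. Fbxo2 was higher in aDR without overlap (0.33, SE 0.12, adjusted p 0.981 by edgeR), while Egfr, the receptor that marks activated cells, stood at -0.18 (SE 0.16). Genes of cell division had a median of 0.0042, with 10 of 20 positive and 0 at an unadjusted p under 0.05 by edgeR. It ran from -0.0996 without aDR mouse 64 to 0.092 without aDR mouse 65. Mki67, the Ki-67 antigen of dividing cells, was at 3.00, 1.31, 3.22 and 3.68 CPM in AL and at 3.53, 1.94, 5.08, 0.726 and 3.97 CPM in aDR mice. The groups overlapped fully, and its log2 change of 0.13 had an SE of 0.45, so a difference was not detectable at this depth and spread. Of the division genes with more counts, Pcna stood at 0.13 (SE 0.098), Mcm4 at -0.015 (SE 0.083) and Ccna2 at -0.0078 (SE 0.092).

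Of the neuroblast genes 15 of 19 had a negative log2 change, with a median of -0.19; 2 had an unadjusted p under 0.05 (Sox11 and Sp9), 0 were called by edgeR or DESeq2, and each one overlapped between the diets. The median was -0.13 in the plexus-poor and -0.22 in the plexus-rich libraries, and -0.14 to -0.29 with 1 mouse left out. Sox11, a factor of immature neurons, was at 71.6, 61.7, 67.8 and 71.2 CPM in AL and at 50.7, 61.1, 56.5, 53.9 and 66.1 CPM in aDR mice. Only aDR mouse 67 reached into the AL range, and the log2 change was -0.25 (SE 0.088, adjusted p 0.981 by edgeR). Sp9, which with Sp8 specifies bulb interneurons, stood at -0.40 (SE 0.18) and Sp8 at -0.53 (SE 0.44). Dcx was at 25.7, 17.4, 26.9 and 31.7 CPM in AL and 12.3, 24.1, 23.8, 19.6 and 29.1 CPM in aDR mice. Mouse 61 had the lowest value of all and the groups overlapped; the log2 change was -0.25 (SE 0.24). Dlx1 (-0.36, SE 0.28), Dlx2 (-0.24, SE 0.28) and Igfbpl1 (-0.52, SE 0.39) had wider errors still, and Tubb3 (0.11), Nrep (0.20), Meis2 (0.067) and Cd24a (0.032) were the 4 positive ones. Part of the list is also expressed by other neurons, and that holds for negative members as for positive ones.

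Ependymal genes had a median of -0.050 with 5 of 18 positive and 0 called by edgeR or at an unadjusted p under 0.05; with the term for plexus content the median was -0.12 and 3 reached that p, all on the lower side. Without AL mouse 68 it was -0.20 and without AL mouse 69 it was 0.065. Foxj1 stood at 0.095 (SE 0.21). Ligands, receptors and inhibitors of the niche (BMP, Hedgehog, Wnt, FGF, Notch and ephrin pathways) split 13 to 13, with a median of 0.012 that was negative without AL mouse 63 (-0.050). The receptor Ephb2, whose family steers neuroblast migration, was the member with the smallest p, at -0.68 (SE 0.22, adjusted p 0.981 by edgeR), with overlap. Noggin (Nog), the BMP inhibitor of the niche, stood at -0.34 (SE 0.29), Ptch1, the Hedgehog receptor and target, at -0.19 (SE 0.095) and Wnt7a at -0.31 (SE 0.18).

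**Figure D4:**
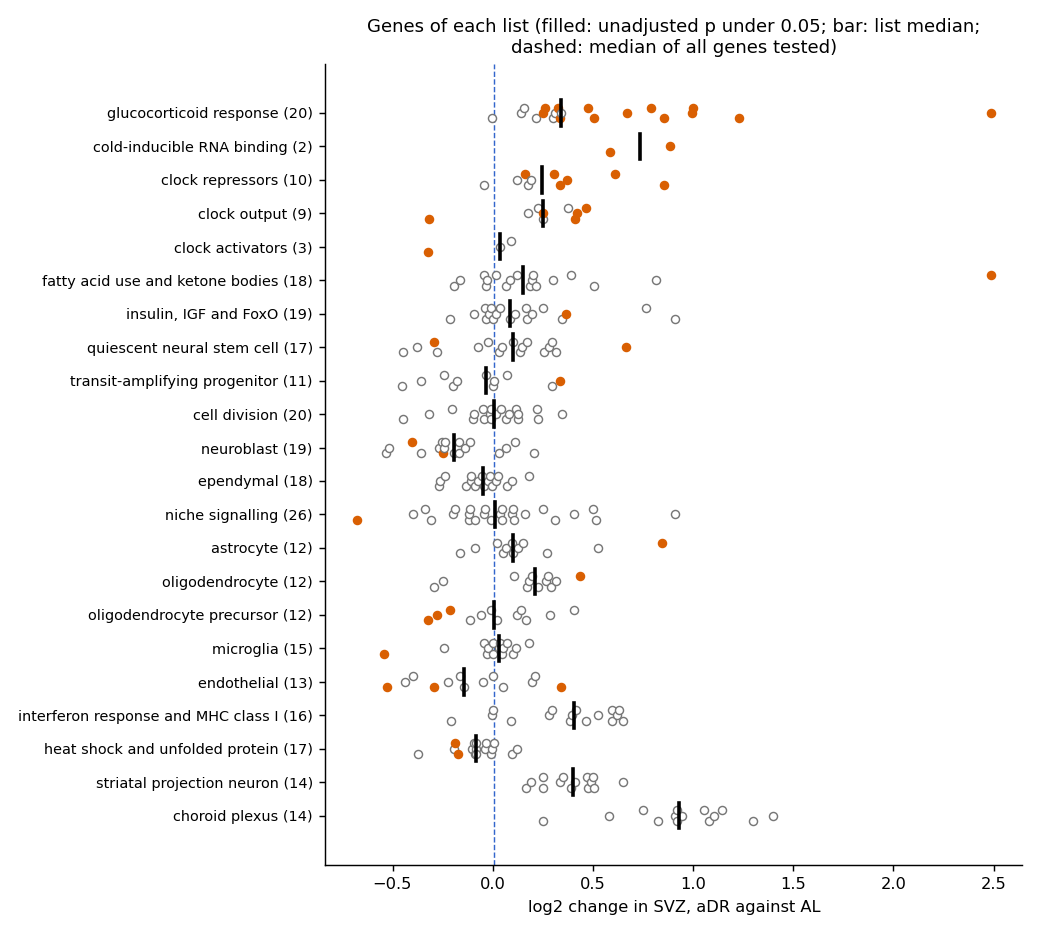
Log2 change of each tested gene in 22 lists, one row per list with the number of genes in brackets; filled points have an unadjusted edgeR p under 0.05, the bar is the list median and the dashed line the median of all genes tested. The filled points of the glucocorticoid and clock repressor lists lie right of 0; lineage lists centre within 0.2 of 0, and the choroid plexus and striatal lists lie to the right without a filled point.

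Genes of the surrounding cells were examined in the same way, and 0 were called by edgeR or DESeq2. The counts at an unadjusted p under 0.05 stand with each list, to be read beside the shares over all genes. At that p by edgeR 2.33% of all genes were higher and 2.22% lower. Without overlap 0.975% of all genes were higher and 0.932% lower. All 14 choroid plexus genes had a positive log2 change, with a median of 0.93, and 0 had an unadjusted p under 0.05; the plexus-richest library was that of aDR mouse 61. The median was -0.34 in plexus-poor and 0.77 in plexus-rich libraries, 0.31 without aDR mouse 61 and 1.56 without AL mouse 69. All 14 striatal genes were positive too, with 0 at that p and a median of 0.40, which was -0.044 without aDR mouse 64. With the term for plexus content 4 of the striatal genes reached an unadjusted p under 0.05, all on the higher side (Ppp1r1b, Tac1, Penk and Gpr6). The interferon and MHC class I list, median 0.41 with 14 of 16 positive and 0 at that p, was at 0.99 in the plexus-poor and -0.081 in the plexus-rich libraries, at 0.025 without aDR mouse 67 and at 0.70 without AL mouse 69. The part of these differences in the values of other genes was not tested beyond the term for plexus content.

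Oligodendrocyte genes had a median of 0.21 with 10 of 12 positive and 1 at an unadjusted p under 0.05; without aDR mouse 61, which had the most of their RNA, it was 0.10. Mbp, myelin basic protein, stood at 0.31 (SE 0.18) and Cldn11, the claudin of myelin, at 0.43 (SE 0.15, adjusted p 0.981 by edgeR). Of the precursor genes 6 of 12 were positive, and the 3 at an unadjusted p under 0.05 were all on the lower side. Tnr, an extracellular matrix protein, did not overlap (AL 41.4 to 45.3 CPM, aDR 34.6 to 38.7 CPM; log2 change -0.21, SE 0.064), and C1ql1 (-0.32, SE 0.13) and Gpr17 (-0.28, SE 0.12) were the others. Microglia genes had a median of 0.031, and -0.050 without AL mouse 66. Among them Fcrls, the 1 gene at an unadjusted p under 0.05, was lower without overlap, at 24.4 to 31.2 CPM in AL and 12.4 to 22.7 CPM in aDR (-0.54, SE 0.15, adjusted p 0.981 by edgeR). P2ry12 (-0.043, SE 0.10) and Tmem119 (0.038, SE 0.17) were within 1 SE of 0.

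Astrocyte genes had a median of 0.099 (0.0090 without aDR mouse 61), with 10 of 12 positive and 1 at an unadjusted p under 0.05. Etnppl, a phospholyase that fasting is known to induce, stood at 0.84 (SE 0.27) and overlapped only through aDR mouse 64 (53.1 CPM; AL 38.0 to 82.4 CPM). Endothelial genes had a median of -0.15 (-0.059 without AL mouse 68). The transporter Slco1a4 was higher without overlap (0.34, SE 0.11), and the junction gene Cldn5 (-0.53, SE 0.22) and Pecam1 (-0.29, SE 0.12) were on the lower side at an unadjusted p under 0.05. Of 10 T cell genes only Ccl5 had enough counts to be tested (0.66, SE 0.63). The haemoglobin genes Hba-a1 (3.21, SE 1.1) and Hbb-bs (2.63, SE 1.1) rested on aDR mouse 67, at 18.1 and 10.1 CPM, and overlapped; each has a near-identical copy, so its counts are uncertain.

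Of 18 genes for fatty acid use and ketone bodies 13 were positive, with a median of 0.15 (0.047 without aDR mouse 61), and Plin4 was the only one at an unadjusted p under 0.05. Cpt1a, the gate of fatty acid entry into mitochondria, stood at 0.22 (SE 0.19) and Ucp2 at 0.82 (SE 0.48). In the insulin, IGF and FoxO list 13 of 19 were positive (median 0.087, and 0.033 without AL mouse 63) and 1, Klf15, had an unadjusted p under 0.05. Insr, the insulin receptor, was higher without overlap at 0.16 (SE 0.075), and Igf1r and Irs2 stood at -0.039 (SE 0.095) and -0.0084 (SE 0.087). Of the chaperones of heat shock and the unfolded protein response 14 of 17 were negative, with a median of -0.083 (-0.053 without aDR mouse 64). Their summed level was 5128 to 5492 CPM in AL and 4401 to 5022 CPM in aDR libraries. Pdia6 (-0.17, SE 0.056) and Calr (-0.19, SE 0.069), folding factors of the endoplasmic reticulum, did not overlap and were the 2 at an unadjusted p under 0.05. EdgeR and DESeq2 both called Plin4 in the fatty acid list. In the insulin list DESeq2 called Klf15 and edgeR called 0. For the chaperones, and for the cholesterol synthesis and immediate early lists below, both called 0. Over all genes edgeR called 0.0212% and DESeq2 0.0848%. At an unadjusted p under 0.05 by edgeR 2.33% of all genes were higher and 2.22% lower. Without overlap 0.975% of all genes were higher and 0.932% lower. Cholesterol synthesis genes (median 0.0093) and immediate early genes (median 0.034) split about evenly, at 8 of 15 and 9 of 16 positive. The immediate early median was 0.36 in the plexus-poor and -0.34 in the plexus-rich libraries, -0.23 without aDR mouse 64 and 0.17 without aDR mouse 61. The cholesterol median was -0.12 in the plexus-poor and 0.094 in the plexus-rich libraries, -0.052 without AL mouse 69 and 0.077 without AL mouse 66.

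The other tissues came from the same mice, 7 of them for corpus callosum, 8 for entorhinal cortex and for hypothalamus and all 9 otherwise. In liver the labels write DR and not aDR for the restricted group. The values elsewhere show where the 3 called genes also differed and are not further replicates, and with fewer mice a lack of overlap is met more easily. Rbm3 was higher in aDR without overlap in 16 of 16 tissues (liver included), Ciart in 15 and Plin4 in 13. Ciart overlapped in posterior hippocampus, and Plin4 in cerebellum, hypothalamus and thalamus. The share of all genes that were higher without overlap was 0.707% in choroid plexus, 0.788% in pons, 0.927% in anterior and 0.968% in posterior hippocampus, 0.975% in SVZ, 0.99% in thalamus, 1.37% in medulla and 1.68% in hypothalamus. The remaining tissues had shares of 1.76% (visual cortex), 2.03% (motor cortex), 2.14% (cerebellum), 2.2% (entorhinal cortex), 2.36% (liver), 2.38% (caudate putamen), 2.56% (corpus callosum) and 2.9% (olfactory bulb). By the difference of mean log2 CPM the SVZ had rank 7 of 16 for Ciart (0.85, between 1.91 in liver and 0.32 in medulla), rank 4 for Plin4 (2.43, between 2.81 in caudate putamen and 0.94 in cerebellum) and rank 3 for Rbm3 (0.88, between 0.93 in pons and 0.38 in olfactory bulb). In the plasma experiment, on males, SVZ levels were 18.1 ± 1.94 CPM (SD, n = 4) of Ciart in PBS and 17.7 ± 2.96 CPM (SD, n = 3) in YMP mice, 4.49 ± 2.37 and 3.80 ± 0.515 CPM of Plin4, and 56.5 ± 12.3 and 47.3 ± 2.79 CPM of Rbm3. Scaled with them, the AL libraries ranged over 22.99 to 26.0 CPM of Ciart, 3.06 to 5.84 CPM of Plin4 and 50.8 to 66.1 CPM of Rbm3. The PBS and YMP values of Ciart (at most 20.8 CPM) and the YMP values of Rbm3 (at most 49.9 CPM) lay below them. The experiments differ in sex as well, and the 2 cannot be told apart.

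**Figure D5:**
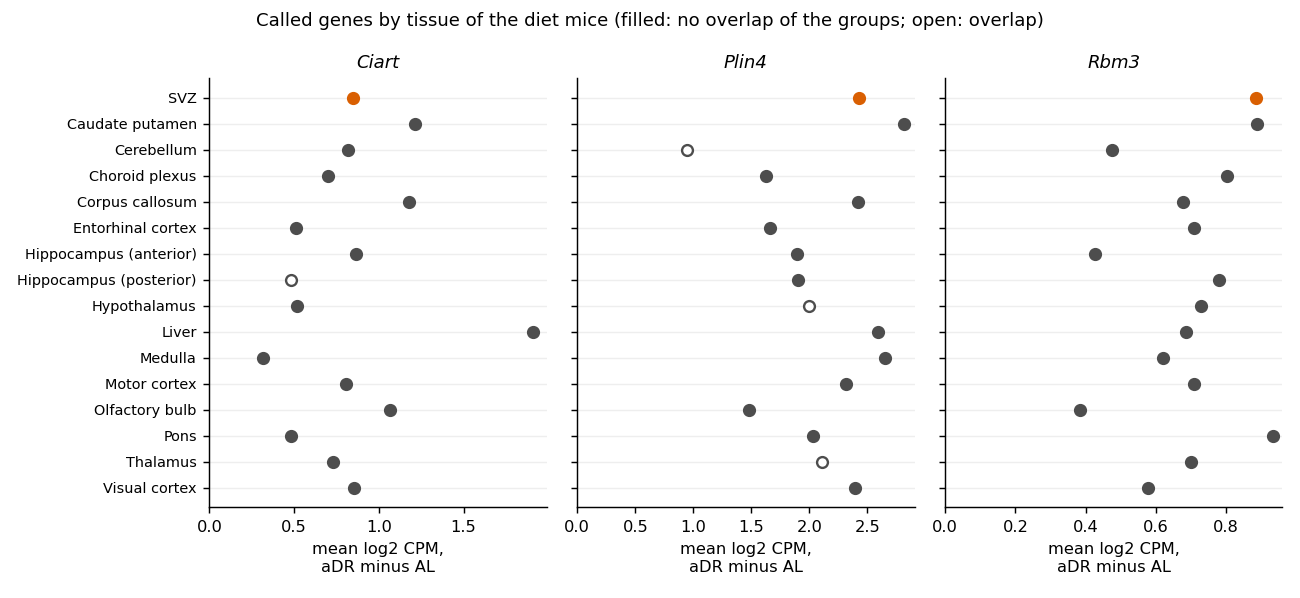
Difference of mean log2 CPM, aDR minus AL, for Ciart, Plin4 and Rbm3 in the 16 tissues of the diet mice, SVZ in orange; filled points mark tissues where all aDR values exceed all AL values. The SVZ lies inside the range of the other tissues for each gene, from 0.32 to 1.91 for Ciart, 0.94 to 2.81 for Plin4 and 0.38 to 0.93 for Rbm3.

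Whether the diet change in the SVZ differed from that in its neighbours was tested directly as an interaction of region and diet. The choroid plexus and corpus callosum libraries also held RNA of other tissues. Choroid plexus genes had a median sum of 6747 CPM in choroid plexus, 7438 CPM in corpus callosum and 6436 CPM in SVZ. Cortical projection neuron genes had 4064 CPM in choroid plexus against 1616 CPM in SVZ. Striatal genes had 6355 CPM in corpus callosum against 3135 CPM in SVZ. With edgeR 0 genes (0%) were called against caudate putamen, the corpus callosum or the choroid plexus, with 327 (2.26%), 181 (1.25%) and 327 (2.25%) at an unadjusted p under 0.05; DESeq2 also called 0, with 371, 148 and 292. Since the regions come from the same mice, the fit was repeated with the mouse as a block, which again called 0, with 433, 178 and 689. Against the mean of 11 other brain regions, with 1 difference per mouse, limma called 0 of 15303 genes (0%), with 481 (3.14%) at an unadjusted p under 0.05. For Ciart the log2 change in the SVZ minus that in caudate putamen was -0.38 (SE 0.18, adjusted p 0.997 by edgeR), and against the rest of the brain it was 0.081 (SE 0.083, limma adjusted p 0.9998). For Plin4 the difference was 0.84 (SE 0.48, adjusted p 0.9999 by edgeR) against choroid plexus and 0.39 (SE 0.21, limma adjusted p 0.9998) against the rest of the brain. For Rbm3 it was -0.0091 (SE 0.14, adjusted p 0.9999 by edgeR) against caudate putamen and 0.21 (SE 0.072, limma adjusted p 0.9998) against the rest of the brain. For Dcx it was -0.43 (SE 0.33, adjusted p 0.9999 by edgeR) against choroid plexus. The edgeR values of these single genes come from the fit without the block. In the blocked fit the Plin4 difference from choroid plexus was 0.81, with a smaller SE of 0.28. That of Dcx was -0.47, with an SE of 0.32. From caudate putamen the blocked difference was -0.37 in Ciart, where the SE was 0.16. Rbm3 stood at -0.0049 there, and its SE was 0.12. The blocked fit called none of these genes. A difference between regions was not detectable with these mice, and the standard errors do not show that the changes were alike.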

How the data were processed

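Libraries from SVZ, a region of the brain, were unstranded Smart-Seq2 cDNA tagmented with Nextera XT, per the labels' protocols. Per the submitters' processing notes, Trim Galore 0.3.7, STAR 2.5.3a and DESeq2 were used with the build GRCm38; the counting program and annotation are not given in the sources used here. The values used are the counts of reads per gene that the authors deposited, 21076 genes by 238 libraries; the reads were not collapsed to molecules. The SDs come from the spread between mice. An edgeR standard error is the absolute log2 change divided by the square root of the quasi-likelihood F. Its spread is moderated over all genes, so an edgeR p need not follow from it exactly. The limma standard errors are moderated over genes too. In the interaction fits without a block, libraries of the same mouse were treated as independent. From the counts, edgeR 4.0.16 (R 4.3.3) gave the quasi-likelihood test on the 9 libraries after filterByExpr (minimum count 10, total 15), which kept 14159 genes, and TMM scaling, with Benjamini-Hochberg adjustment and 0.05 as the threshold. CPM of single genes use TMM-scaled totals of each tissue, and summed CPM of lists use plain totals; values on the log2 scale for differences between tissues use a prior count of 2. Interactions used edgeR on both regions, and limma 3.58.1 on the SVZ value minus the mean of 11 regions of each mouse. DESeq2 1.42.0, limma voom, RLE and upper quartile scaling, other filters, all 16 SVZ libraries of both experiments and leaving out each mouse were alternatives, as were 3 settings for plexus content that were chosen after seeing the data. The fits were also run on simulated counts. These held neither the plexus split nor a correlation between regions of the same mouse, so that run does not bear on either.

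Regions are paired by the animal, whose number the labels give: deviations of the same mouse correlated at 0.26 on average with caudate putamen (9 pairs), 0.26 with corpus callosum (7) and 0.13 with choroid plexus (9), with single pairs from -0.25 to 0.50. In the 16 pairs of SVZ libraries of a group the chi-square per degree of freedom was at least 3.04, so none is a duplicate. The genes named are every called gene, the 8 with the smallest p on each side, the 5 largest changes on each side at an unadjusted p under 0.01, and in each list the members called, with the smallest p or with a role described. The libraries, lists and tests were chosen with earlier results of these data known. Of the 28 lists (394 entries, 19 of them with too few counts to be tested), mural cells and fibroblasts (median -0.011, 6 of 13 positive), cortical projection neurons (median -0.093, 2 of 8 positive) and blood (median 0.40, 3 of 5 positive) had 0 genes called by edgeR or DESeq2, with 0, 0 and 2 at an unadjusted p under 0.05. The cortical median was 0.12 without AL mouse 68 and -0.38 without AL mouse 69, that of blood 0.059 without aDR mouse 67, and that of mural cells 0.11 without AL mouse 68. Promoter windows are from RefSeq (GRCm38.p6); 2 of the 3 called genes matched an entry, and Rbm3 is named only.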

Additional observations from a re-analysis of the deposited data

Results flagged for a closer look

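A value far from the others of its group was found in 4 of the 112 groups of values examined; chance would give about 5.6, at 1 in 20. The summed level of transit-amplifying progenitor genes was 393.8 CPM in AL mouse 66, where the other AL mice had 514 to 519 CPM. Adipor2 was at 77.3 CPM in aDR mouse 61 and at 55.7 to 61.8 CPM in the other aDR mice. The striatal projection neuron genes summed to 8767 CPM in aDR mouse 64 against 2613 to 4159 CPM in the other aDR mice. The clock repressor genes summed to 981 CPM in the same mouse 64 against 876 to 898 CPM; whether the high striatal content of that library has a part in this was not tested.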

How the results depend on the processing

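The 3 calls rest on few libraries. DESeq2 called 12 genes, and leaving out 1 mouse left 0 to 2 calls (0 without AL mouse 63, 68 or 69; 1 without aDR mouse 61, 62 or 67 or AL mouse 66; 2 without aDR mouse 64 or 65). The plexus-poor and the plexus-rich libraries alone gave 0 calls each, with 424 and 1018 genes at an unadjusted p under 0.05. Of 19 alternatives, 14 called Ciart, 8 Plin4 and 9 Rbm3, and none turned a direction: the log2 change ranged from 0.81 to 0.91 for Ciart, 2.17 to 2.69 for Plin4 and 0.81 to 0.95 for Rbm3. RLE and upper quartile scaling, no filter, a minimum count of 30, all 16 SVZ libraries and the term for plexus content gave 3 calls each, and limma voom 2. The medians of the glucocorticoid, clock repressor, clock output, cold-inducible, fatty acid, insulin, neuroblast, heat shock, astrocyte, oligodendrocyte and endothelial lists had the same sign under all 19 alternatives; that of the niche list had it under 9, of precursors under 12, of cholesterol and mural genes under 13 each, and of cell division and cortical genes under 14 each. The interactions called 0 genes under each alternative run, the replicate block by mouse included (0 calls against each of the 3 regions).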
